A study of Mus musculus with 25 samples.

Results

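Transcript levels of 37 genes of the lysosome and of the network around the transcription factors *Tfeb* and *Tfe3* were described in mouse E14 embryonic stem (ES) cells, out of 48440 genes in the count table. The genes were chosen by name from the pathway, with earlier results of these data known, and all 37 were found in the table. The choice was made knowing that *Ifi30* lay over 2-fold lower in every edited clone than in any unedited library, so the difference between clones and unedited cells is given here as a description, and nothing is read from the counts of calls printed with it. Of the 37 genes, 34 passed the filter on low counts in the dose fit, and *Mitf*, *Sgsh* and *Atp6v0c* did not.

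E14 cells grow without feeder cells, in serum and leukemia inhibitory factor. Unedited cells were kept for 48 h at 0, 2.5, 5, 7.5 or 10 µM CHIR99021, an inhibitor of the kinase GSK3, with 2 libraries at each dose. The 15 edited clones each carried 1 of 11 missense mutations in *Ctnnb1*, the gene for β-catenin, on a single allele at codon 37 (S37A, S37C, S37F, S37Y), 41 (T41A, T41I, T41N, T41S) or 45 (S45C, S45F, S45P), with 2 clones for S37F, S45F, T41A and T41I and 1 for the others. Clones were also kept for 48 h, at 0 µM CHIR99021. Each clone was an expanded colony from a knock-in that first replaced and then restored part of the gene, and gave 1 library. The unedited libraries had no such history, so mutation, editing and clonal expansion cannot be told apart. A batch of preparation cannot be told apart from these either, since the labels do not say whether clones and unedited libraries were prepared together. The sources used here do not say that libraries of a dose came from separate cultures, and p-values measure only the spread between these libraries.

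Libraries held 306157 to 2083398 counts in unedited cells and 495616 to 2025273 in clones, and a count of 0 allowed up to 1.44 to 9.80 CPM (each count divided by the library's total and scaled to 1e6) depending on the library. Pairs of libraries of 1 dose or 1 mutation differed by more than counting noise in all 9 pairs (chi-square per degree of freedom 1.36 to 3.99), so none was taken as a repeat of another. The share of mitochondrial counts was 0.485% to 1.46% in unedited libraries and 1.53% to 2.52% in clones, with no overlap. Unedited libraries fell into 4 with a share of 0.485% to 0.562% and 6 with 0.986% to 1.46%. The 4 held 306157 to 940544 counts and the 6 held 1311779 to 2083398, so a cut at 0.8% also separates smaller from larger libraries. Of the ES cell markers, 9 of 10 had a mean of at least 20 CPM. The exception was *Pou5f1*, and the reason for its low count was not tested. *Adgre1*, *Ptprc* and *Tyrobp*, defining genes of macrophages, had no count in any library. The summed level of the 7 macrophage markers was at most 8.22 CPM.

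Lysosomes degrade proteins, lipids and sugars with acid hydrolases, and the V-ATPase proton pump keeps their lumen acid. TFEB, TFE3 and MITF bind E-box sequences known as CLEAR elements near many lysosomal and autophagy genes, and they are held in the cytoplasm when phosphorylated by mTORC1 on the lysosomal surface or by GSK3. Folliculin (FLCN) with FNIP1 or FNIP2 acts on the Rag GTPases, RRAGD among them, through which mTORC1 reaches these factors, and β-catenin is itself a GSK3 substrate.

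Promoter sequences are shown for *Ifi30*, which separated clones from unedited cells, for *Lamp1*, which held the most E-boxes of the sequences shown, and for *Rragd* and *Npc2*, which had the smallest adjusted p-values in the dose fit. They are RefSeq sequences of build GRCm38.p6 from 250 bases before to 50 bases after the annotated start, written 5′ to 3′ on the gene's strand. Capitals mark CACGTG with its flanking T or A where it forms TCACGTG on either strand, and the TCF/LEF letters CTTTGAT or CTTTGAA on either strand.
*Ifi30* promoter, chr8:70766614-70766913, strand -: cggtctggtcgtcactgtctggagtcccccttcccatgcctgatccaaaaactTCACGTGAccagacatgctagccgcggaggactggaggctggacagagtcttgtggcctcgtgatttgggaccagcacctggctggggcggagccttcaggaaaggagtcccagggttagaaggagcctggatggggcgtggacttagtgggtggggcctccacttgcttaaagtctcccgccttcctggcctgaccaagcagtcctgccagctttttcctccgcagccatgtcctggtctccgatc
*Lamp1* promoter, chr8:13158911-13159210, strand +: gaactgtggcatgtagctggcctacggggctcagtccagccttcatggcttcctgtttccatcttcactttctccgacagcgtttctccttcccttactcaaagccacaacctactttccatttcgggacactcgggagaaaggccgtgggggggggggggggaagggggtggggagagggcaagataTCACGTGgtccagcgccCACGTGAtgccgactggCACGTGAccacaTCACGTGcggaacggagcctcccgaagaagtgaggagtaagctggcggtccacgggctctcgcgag
*Rragd* promoter, chr4:32982748-32983047, strand +: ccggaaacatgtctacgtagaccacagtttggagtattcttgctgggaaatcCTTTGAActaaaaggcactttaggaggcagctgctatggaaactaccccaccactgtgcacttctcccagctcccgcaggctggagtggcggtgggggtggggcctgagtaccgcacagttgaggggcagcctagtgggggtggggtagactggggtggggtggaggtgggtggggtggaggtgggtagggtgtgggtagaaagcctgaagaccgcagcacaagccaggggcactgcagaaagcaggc
*Npc2* promoter, chr12:84773063-84773362, strand -: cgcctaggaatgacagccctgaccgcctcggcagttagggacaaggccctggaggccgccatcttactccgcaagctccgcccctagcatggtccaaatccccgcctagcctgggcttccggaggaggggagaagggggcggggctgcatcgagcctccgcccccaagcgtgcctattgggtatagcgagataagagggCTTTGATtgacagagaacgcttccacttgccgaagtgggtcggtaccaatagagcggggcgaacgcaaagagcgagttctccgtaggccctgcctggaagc

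*Lamp1* held 4 copies of CACGTG, all in the form TCACGTG on 1 of the strands, and *Ifi30* held 1, which is the palindrome TCACGTGA. *Rragd* and *Npc2* held no CACGTG, but *Rragd* held 1 CTTTGAA and *Npc2* 1 CTTTGAT. A RefSeq promoter was matched for 34 members, all but *Npc1*, *Atp6v1h* and *Ctsb*. TCACGTG on either strand was present in 15 of them (44.1%), against 4.29% of all 27025 genes with a promoter and 3.77% of all 32851 promoters of this length. The palindrome TCACGTGA, every copy of which also counts as TCACGTG, was present in 8 members (23.5%) and in 1.12% of all genes. The members were picked from the network of factors that bind such E-boxes, so these shares are a description and no test. CTTTGAT was found in 3 members (8.82%) and 4.29% of all genes, and CTTTGAA in 2 members (5.88%) and 5.93% of all genes. The following stretches show the palindrome in *Ctsd*, *Mcoln1* and *Atp6v0d1* and the shorter TCACGTG in *Gaa*, each with its neighbouring bases, because these genes were called in the dose fit (*Ctsd*) or lower in clones.
*Ctsd*, chr7:142387904-142387941, strand -: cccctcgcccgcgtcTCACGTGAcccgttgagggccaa
*Mcoln1*, chr8:3500458-3500495, strand +: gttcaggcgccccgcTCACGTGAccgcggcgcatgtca
*Atp6v0d1*, chr8:105566046-105566083, strand -: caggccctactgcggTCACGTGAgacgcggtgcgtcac
*Gaa*, chr11:119267807-119267844, strand +: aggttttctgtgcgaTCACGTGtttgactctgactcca

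**Figure D1:**
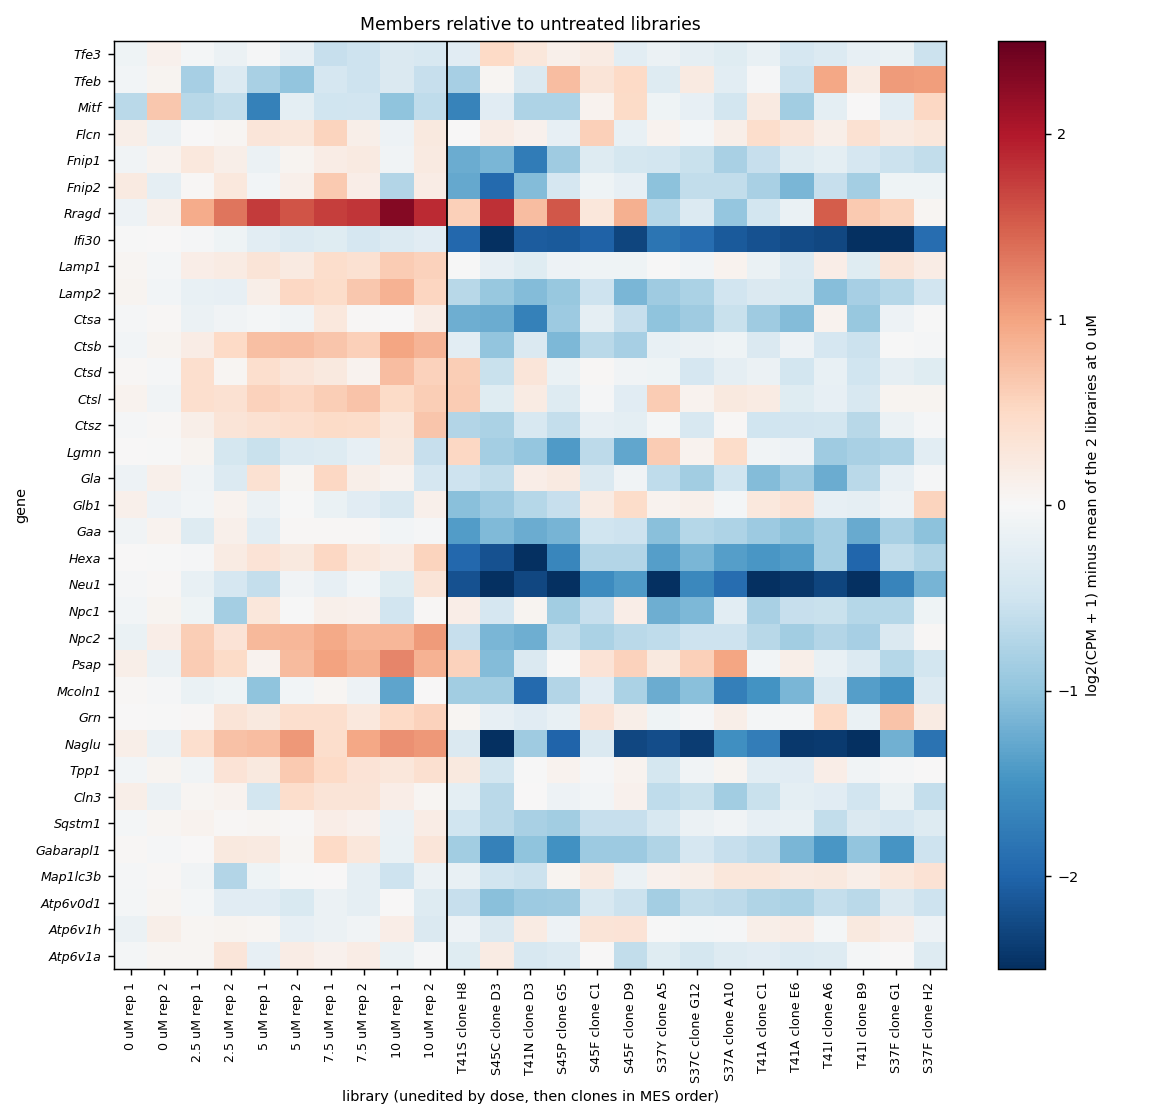
Heat map of log2(CPM + 1) minus the mean of the 2 libraries at 0 µM for the 35 members with an untreated mean of at least 5 CPM (rows), in the 10 unedited libraries by dose and the 15 clones in order of mutation effect score (columns); colours are cut at 2.5 log2 units. *Rragd* darkens to red with dose, and *Ifi30*, *Neu1* and *Hexa* are blue in every clone.

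The first comparison asked how these genes changed with the dose of CHIR99021 in cells without a mutation. Some of the members rose, and 21 of the 34 tested were not called. *Rragd*, the membrane proteins *Lamp1* and *Lamp2* and the cathepsins *Ctsb*, *Ctsd*, *Ctsl* and *Ctsz* were higher with dose. So were the hexosaminidase subunit *Hexa* and the lumenal proteins *Npc2*, *Psap* and *Grn*, whereas *Tfe3* and *Ifi30* were lower. These are 11 higher and 2 lower of 34 members tested by edgeR's quasi-likelihood test at an adjusted p of 0.05, where 5.89% of the 10033 genes tested were higher, 6.63% were lower and 12.5% were called either way. Of the 31 members with a mean of 20 CPM or more, all 4 libraries of 7.5 and 10 µM lay above both untreated libraries for 11 and below them for 3, where 16.2% and 18.9% of 7091 genes did so. The median change was 0.019 log2 units per µM over the 34 members and 0.00084 over all genes.

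*Rragd*, which encodes a Rag GTPase, had the steepest change. Its level was 16.9 and 20.2 CPM at 0 µM, 35.9 and 48.0 CPM at 2.5 µM, 64.2 and 57.1 CPM at 5 µM, 63.1 and 66.3 CPM at 7.5 µM, and 94.7 and 70.0 CPM at 10 µM. All treated libraries lay above both untreated ones, and the mean at 10 µM was 4.45 times that at 0 µM. The slope was 0.17 ± 0.025 log2 units per µM (SE, n = 10, edgeR adjusted p = 1.08e-05). In the lowest untreated library the level rested on 31 counts, with a Wilson 95% interval of 11.9 to 23.9 CPM that covers counting error only. The highest library, at 10 µM, rested on 29 counts (66.0 to 136 CPM), and the other library of that dose on 93 (57.2 to 85.8 CPM).

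Of the other folliculin and Rag genes none passed the test. *Flcn*, which encodes folliculin, was at 39.7 and 31.9 CPM untreated and 32.7 and 42.2 CPM at 10 µM (edgeR adjusted p = 0.444). *Fnip1* was at 116 and 133 CPM untreated and 118 and 145 CPM at 10 µM, and *Fnip2* at 70.7 and 52.1 CPM and then 35.9 and 69.3 CPM. The libraries of both doses overlapped for all 3 genes.

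None of the transcription factors was called higher. *Tfe3* was at 77.7 and 91.4 CPM at 0 µM, 81.9 and 76.2 CPM at 2.5 µM, 82.2 and 73.4 CPM at 5 µM, 56.6 and 58.8 CPM at 7.5 µM, and 65.3 and 63.3 CPM at 10 µM. Its slope was −0.051 ± 0.017 log2 units per µM (SE, n = 10, edgeR adjusted p = 0.0459), and this call was lost in 16 of 21 alternative settings, over which the adjusted p ranged from 0.026 to 0.65. *Tfeb* was at 44.6 and 48.9 CPM untreated, at 23.0 to 36.6 CPM in the 8 treated libraries, and did not pass (slope −0.052 ± 0.025, edgeR adjusted p = 0.185), although every treated library lay below both untreated ones. *Mitf*, the melanocyte factor of the family, was at 1.65 to 12.8 CPM in unedited libraries and was not tested.

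Both membrane glycoproteins that coat the lysosome rose. *Lamp1* was at 934 and 866 CPM untreated and at 1388 and 1341 CPM at 10 µM, with each dose's mean above that of the dose before, and its slope was 0.058 ± 0.011 (SE, n = 10, edgeR adjusted p = 0.00034). *Lamp2*, which also serves chaperone-mediated autophagy, was at 113 and 103 CPM untreated, 94.8 and 93.0 CPM at 2.5 µM and 199 and 158 CPM at 10 µM (slope 0.082 ± 0.016, adjusted p = 0.00057). *Lamp2* thus lay below the untreated libraries at the lowest dose and above them from 5 µM on. *Mcoln1*, a lysosomal calcium channel, *Npc1*, a cholesterol transporter, and *Cln3* did not pass, with slopes of −0.014 to 0.020.

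The cathepsins, the main lysosomal proteases, moved in 1 direction where they moved. *Ctsb* was at 172 and 188 CPM untreated and 359 and 325 CPM at 10 µM, 1.90 times the untreated mean (slope 0.084 ± 0.014, n = 10, edgeR adjusted p = 0.000121). *Ctsl* was at 370 and 331 CPM and then 490 and 532 CPM (slope 0.057 ± 0.013, adjusted p = 0.00338), and its highest library, 574 CPM, was at 7.5 µM. *Ctsz* was at 107 and 113 CPM and then 134 and 178 CPM (slope 0.056 ± 0.014, adjusted p = 0.00479). *Ctsd* was at 202 and 197 CPM and then 340 and 300 CPM (slope 0.049 ± 0.015, adjusted p = 0.0272), with no steady order of the doses between. The carboxypeptidase *Ctsa*, the asparaginyl protease *Lgmn* and the tripeptidyl peptidase *Tpp1* did not pass. Reads of *Ctsb* and *Ctsz* may not be separated from those of *Fdft1* and *Nelfcd*, which overlap them on the other strand. The strand setting of the counting is not given in the sources used here. *Lamp1* and *Grtp1* overlap in the same way.

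All 3 lumenal carriers and activators rose. *Npc2*, which binds cholesterol in the lumen, was at 273 and 343 CPM at 0 µM, 468 and 390 CPM at 2.5 µM, 541 and 544 CPM at 5 µM, 591 and 547 CPM at 7.5 µM, and 546 and 637 CPM at 10 µM (slope 0.094 ± 0.015, n = 10, edgeR adjusted p = 3.95e-05). Every treated library was above both untreated ones. *Grn*, the precursor of granulins, was at 116 and 114 CPM and then 163 and 172 CPM (slope 0.049 ± 0.014, adjusted p = 0.0133). *Psap*, the precursor of the saposins, was at 11.96 and 9.57 CPM and then 26.1 and 20.3 CPM (slope 0.096 ± 0.031, adjusted p = 0.0345), on 7 to 40 counts in unedited libraries.

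Of the glycosidases and the sulfatase, *Hexa* alone passed, at 176 and 174 CPM untreated and 199 and 257 CPM at 10 µM (slope 0.047 ± 0.013, n = 10, edgeR adjusted p = 0.0136). The slopes of *Gla*, *Glb1*, *Gaa* and *Neu1* were −0.014 to 0.017 and did not pass, nor did *Naglu* (0.091 ± 0.035, adjusted p = 0.0878). None of the 3 autophagy members (*Sqstm1*, *Gabarapl1*, *Map1lc3b*) and none of the 3 V-ATPase members tested (*Atp6v0d1*, *Atp6v1h*, *Atp6v1a*) passed, with slopes of −0.021 to 0.029. *Atp6v0c*, the proteolipid subunit of the pump, had 2 counts in all 25 libraries and *Sgsh* had 52.

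*Ifi30*, the lysosomal thiol reductase that unfolds antigens, went the other way from the cathepsins. It was at 745 and 759 CPM at 0 µM, 733 and 694 CPM at 2.5 µM, 624 and 595 CPM at 5 µM, 609 and 561 CPM at 7.5 µM, and 591 and 617 CPM at 10 µM. The 6 libraries from 5 µM on all lay below the 4 libraries under it, and the slope was −0.037 ± 0.011 log2 units per µM (SE, n = 10, edgeR adjusted p = 0.0301). That call was lost in 7 of 21 alternative settings, with adjusted p from 0.00509 to 0.416.

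**Figure D2:**
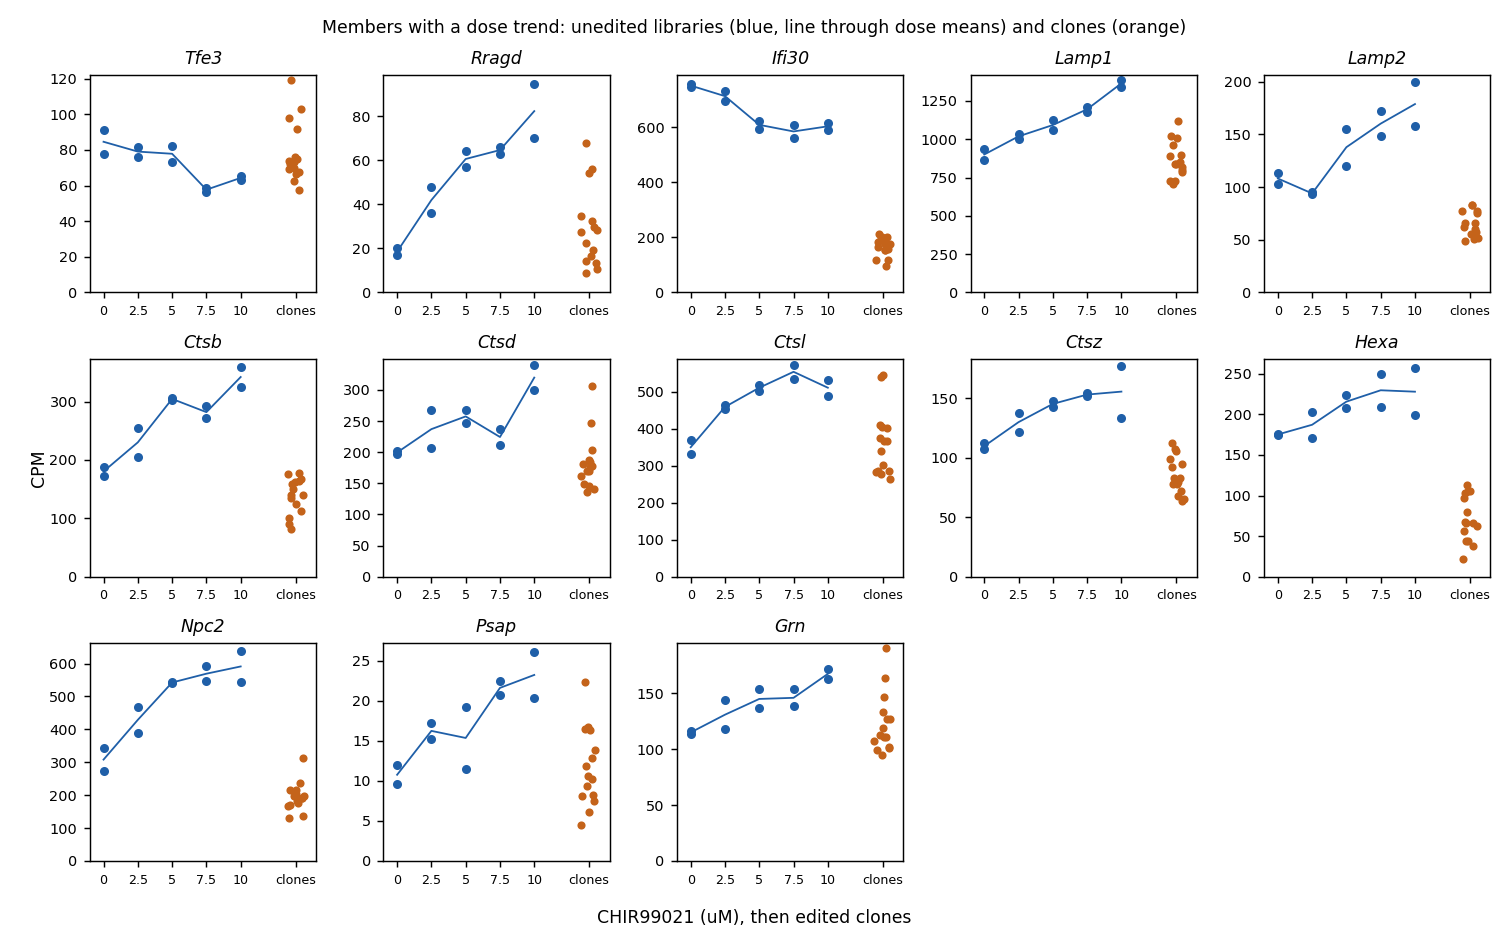
Levels in CPM (vertical axis, from 0) of the 13 members with a dose trend, against the dose of CHIR99021 in µM for the 10 unedited libraries (blue points, with a line through the mean of each dose), and beside them the 15 clones (orange points, spread sideways for sight only). *Rragd* climbs from 16.9 to 94.7 CPM, and the orange points of *Hexa* and *Lamp2* lie below all blue ones.

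Some of these calls were lost when 1 untreated library was left out and most when both were, while the slopes kept their sign. When the 2 libraries at 0 µM were left out, an alternative chosen after seeing the data, *Lamp2* was the only member called, and 121 of 10089 genes in all. The slope was then 0.053 for *Lamp1*, 0.041 for *Hexa*, −0.034 for *Ifi30* and −0.061 for *Tfe3*, near or beyond the values over all 10 libraries, but 0.096 for *Rragd*, 0.059 for *Npc2* and 0.024 for *Ctsl*. Without the first untreated library 6 members were called (*Ctsb*, *Ctsl*, *Lamp1*, *Lamp2*, *Npc2* and *Rragd*), and the same 6 were among the 8 called without the second and the 8 called in the 6 libraries with a mitochondrial share over 0.8%. In these 3 settings neither *Ifi30* nor *Tfe3* was called. Of the genes that rose, *Psap* lost its call in 9 of 20 alternative settings, *Ctsd* in 8 of 21, *Grn* in 7 of 21, *Hexa* in 4 and *Ctsz* in 3, *Lamp2* in none of 21 and the other 5 in 1 each.

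Markers of other cell types moved with dose too. The summed level of the 10 ES cell markers was 5361 and 5435 CPM untreated and 3704 and 3998 CPM at 10 µM, with 7 markers lower and 1 higher. The 10 primitive endoderm markers summed to 571 and 623 CPM and then 864 and 885 CPM, with *Col4a1* and *Lama1* higher of 3 tested. The 7 trophoblast markers summed to 345 and 374 CPM and then 789 and 843 CPM. Of 4 of them tested, *Gata3*, *Krt18* and *Krt8* were higher and *Tfap2c* lower. Only 3 markers of each of these lists had a mean of at least 20 CPM. The 7 neural markers fell, from 75.0 and 81.9 CPM to 32.4 and 35.9 CPM, with *Tubb3* lower of 2 tested. The 7 mesendoderm markers summed to 16.9 and 19.1 CPM and then 144 and 163 CPM. In bulk libraries a change in the share of cells of a type and a change of RNA per cell cannot be told apart, and the part of these cell types in the rise of lysosomal genes was not tested.

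Some lysosomal genes outside the member list moved as well. Of 25 other hydrolases and cofactors tested, *Ctsc*, *Asah1* and *Pla2g15* were higher and none lower. *Ctsc*, the dipeptidyl peptidase that activates granule proteases, went from 19.1 ± 1.44 to 77.6 ± 1.11 CPM (SD, n = 2 libraries at 0 and 10 µM; slope 0.19 ± 0.025, edgeR adjusted p = 3.2e-06). Of 21 other membrane proteins tested, 3 were higher, *Cd63* and *Igf2r* among them, and 2 were lower, *Scarb2* and *Sort1*. *Cd63*, a tetraspanin of late endosomes, went from 277 ± 7.80 to 508 ± 52.9 CPM. Of 14 other V-ATPase subunits *Atp6v0e*, *Atp6v0b* and *Atp6v0a2* were higher, of 27 nutrient-sensing and mTORC1 genes only *Seh1l* changed, falling, and of 25 other autophagy genes *Atg3* and *Atg7* were higher and *Wipi2* lower. Median slopes were 0.026, 0.010, 0.032, 0.00041 and −0.0078 in these 5 lists, beside 0.00084 over all genes. Over all genes tested, 5.89% were higher with dose and 6.63% lower.

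Interferon-response and antigen-processing genes, the family of pathways *Ifi30* is usually grouped with, fell more than they rose, with 5 lower and 1 higher of 13 tested. The shares over all genes were 6.63% lower and 5.89% higher. *Ifitm1*, a membrane protein that restricts viral entry, went from 804 ± 50.5 to 227 ± 30.1 CPM (SD, n = 2; slope −0.19 ± 0.020, edgeR adjusted p = 3.9e-08), and its neighbours *Ifitm3* and *Ifitm2* fell as well. *B2m*, the light chain of MHC class I, was the gene that rose, from 112 ± 4.33 CPM in untreated libraries to 175 ± 6.14 CPM at 10 µM.

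The second comparison asked whether the genes followed the mutation effect score (MES), the study's measure of how strongly each mutation activates β-catenin signaling, across the 15 clones. *Fnip1*, *Ctsa*, *Glb1*, *Hexa* and *Map1lc3b* were higher and *Tfe3* and *Ctsd* lower in clones of higher score. These are 5 higher and 2 lower of 34 members tested, where 9.91% of the 10145 genes tested were higher, 13.0% lower and 22.9% called either way, so the members' share of 7 in 34 was near that of all genes. Slopes are given per 10000 MES units. Clones of 1 mutation share its score, so the 15 clones hold 11 scores and n = 15 counts clones, not mutations. With counts summed per mutation, the 5 higher members kept their calls. *Tfe3* and *Ctsd* lost theirs in that fit (edgeR adjusted p = 0.0562 and 0.0817).

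*Map1lc3b*, which encodes an LC3 protein of autophagosomes, had the smallest adjusted p. It ranged from 98.9 to 185 CPM (median 161) and its slope was 0.25 ± 0.058 log2 units (SE, n = 15, edgeR adjusted p = 0.00303). The 3 clones of lowest score, T41S, S45C and T41N, were at 127, 104 and 98.9 CPM and held the 3 lowest values. *Glb1*, the lysosomal β-galactosidase, ranged from 28.8 to 88.6 CPM (median 58.1; slope 0.40 ± 0.11, adjusted p = 0.0111), and those 3 clones again were lowest, at 28.8, 31.7 and 36.3 CPM. *Ctsa*, the protective protein of β-galactosidase, ranged from 70.6 to 246 CPM (median 123; slope 0.38 ± 0.11, adjusted p = 0.0159). *Fnip1*, a folliculin partner, ranged from 36.3 to 105 CPM (median 84.7; slope 0.29 ± 0.088, adjusted p = 0.0189). *Hexa* ranged from 22.2 to 114 CPM (median 66.7; slope 0.39 ± 0.13, adjusted p = 0.0409). *Ctsa* overlaps *Pltp* on the other strand, which had 9203 counts over all libraries beside 5782 for *Ctsa*, *Map1lc3b* overlaps *Zcchc14* in the same way (1043 beside 4718), and *Glb1* overlaps *Tmppe* on its own strand (868 beside 1917), so reads of these pairs may not be separated.

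*Tfe3* ranged from 57.6 to 119 CPM over the clones (median 73.0; slope −0.21 ± 0.070, n = 15, edgeR adjusted p = 0.0334), with its highest value in S45C and its lowest in S37F clone H2. *Ctsd* ranged from 136 to 306 CPM (median 176; slope −0.21 ± 0.076, adjusted p = 0.0475), and the highest of these was T41S clone H8. The *Ctsd* call was lost in 18 of 23 alternative settings and the *Tfe3* call in 11 of 23, over which the adjusted p ran from 0.00299 to 0.678 and from 0.00697 to 0.381. The *Hexa* call was lost in 10 of 23, those of *Ctsa* and *Fnip1* in 3, of *Glb1* in 2 and of *Map1lc3b* in 1.

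*Tfeb* just missed the threshold (slope 0.39 ± 0.14, n = 15, edgeR adjusted p = 0.0526), at 26.0 to 98.2 CPM, lowest in T41S clone H8 and highest in S37F clone G1. It was called higher in some alternative settings, among them no filter, thinned counts and leaving out S37A, S37Y or S45P. In others, such as DESeq2 and counts summed per mutation, *Tfeb* was not called. *Mitf* was at 1.70 to 11.2 CPM, *Flcn* at 30.6 to 54.0 CPM and *Fnip2* at 15.1 to 56.5 CPM, and none of these passed. *Rragd* varied most widely of the folliculin and Rag genes, from 8.93 CPM in S37A clone A10 to 67.9 CPM in S45C clone D3, a 7.60-fold range, without a call (slope −0.39 ± 0.20, adjusted p = 0.167). *Ifi30* did not pass (slope −0.030 ± 0.089, adjusted p = 0.858).

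**Figure D3:**
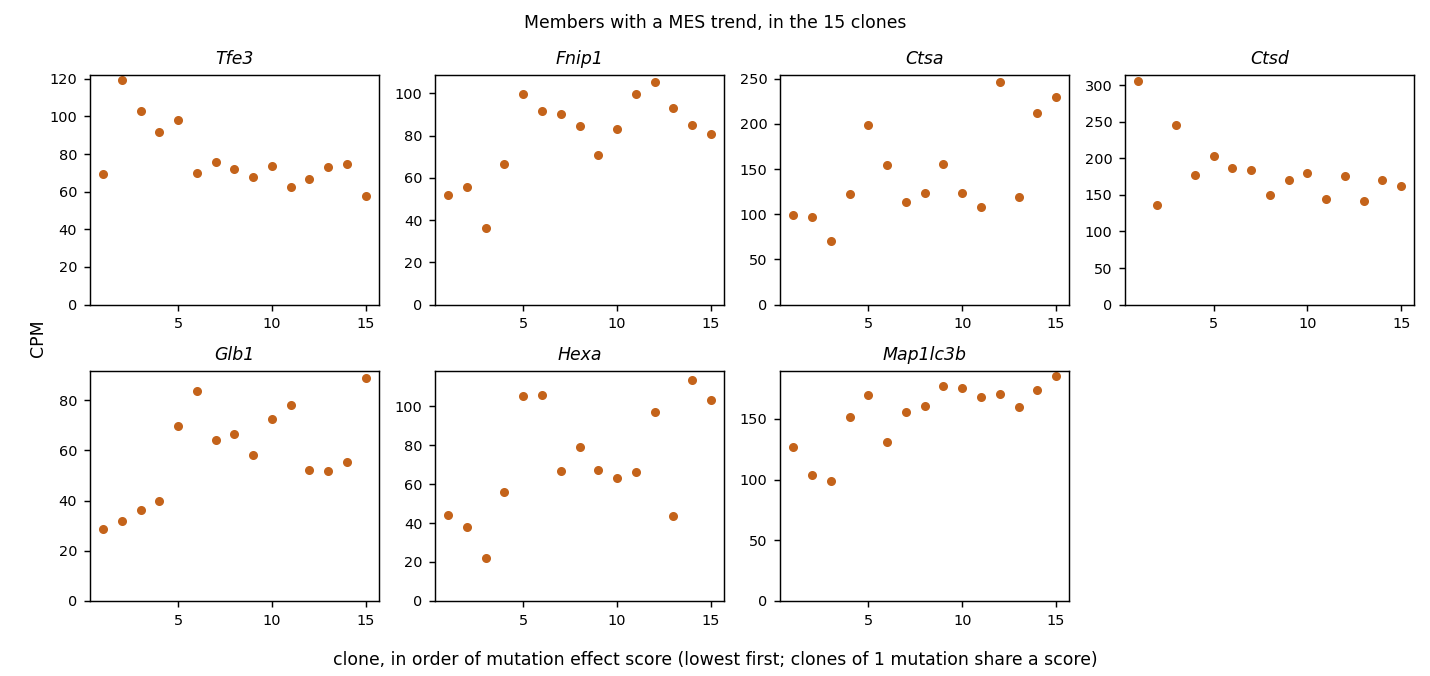
Levels in CPM (vertical axis, from 0) of the 7 members with a MES trend in the 15 clones, placed in order of the score of their mutation from lowest to highest (horizontal axis, order only). The 3 clones at the left hold the lowest *Map1lc3b* and *Glb1* values, and *Ctsd* is highest in the first clone, at 306 CPM.

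The calls over clones were lost without the 3 clones of lowest score, but the slopes did not all shrink alike. Without T41S, S45C and T41N, an alternative chosen after seeing the data, 0 of 34 members were called by edgeR, and 23 of 10082 genes in all. At an unadjusted p under 0.05 that fit held 3 members higher and 1 lower, and no other tool was run on these clones. The slope fell to 0.047 for *Fnip1*, 0.10 for *Glb1* and 0.12 for *Hexa*, whereas it was 0.295 for *Ctsa*, 0.17 for *Map1lc3b*, −0.12 for *Ctsd* and −0.24 for *Tfe3*. Without T41S alone *Map1lc3b* and *Tfe3* kept their calls and *Ctsb*, *Npc2* and *Sqstm1* gained one. Clones of the same mutation differed for some genes about as much as clones of all mutations: the SD of log2(CPM + 1) within the 4 mutations with 2 clones was 0.235 for *Tfe3* and 0.396 for *Ctsa*, against 0.285 and 0.511 over the 15 clones. It was smaller for *Fnip1* (0.121 against 0.416) and *Map1lc3b* (0.139 against 0.277).

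In the wider lists, 4 of 24 other hydrolases and cofactors tested were higher with the score, *Gm2a*, *Acp5* and *Ctsc* among them. The 3 lower ones included *Lipa* and *Ids* (edgeR, n = 15). Over all genes tested in this fit, 9.91% were higher and 13.0% lower. *Igf2r*, a receptor that sorts hydrolases to lysosomes, was higher and *Sort1* and *Laptm4a* lower among 21 membrane proteins. Of 28 nutrient-sensing genes *Lamtor2* and *Deptor* were higher and *Gsk3b* lower, of 24 autophagy genes *Ulk1* and *Gabarapl2* were higher and *Vmp1* lower, and of 14 V-ATPase subunits *Atp6v1d* was higher and *Atp6v0e* lower. Of 13 interferon and antigen-processing genes 6 were lower (*Tapbp*, *Ifitm1*, *Ifitm3*, *Tap1*, *B2m*, *H2-D1*) and none higher, and *B2m* ranged from 47.9 to 314 CPM. Markers of other cell types varied strongly among clones, with trophoblast markers summing to 173 to 3069 CPM and primitive endoderm markers to 469 to 2956 CPM. With the score, all 3 trophoblast and all 3 neural markers tested were lower, as was *Col1a1*, the 1 fibroblast marker tested. Of 7 primitive endoderm markers tested 1 was higher and 1 lower, and of 2 mesendoderm markers 0 were called. Of 10 ES cell markers 5 were higher and 1 lower. The part of these markers in the trends was not tested.

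The third comparison set the clones beside unedited cells. *Ifi30* was at 95.1 to 213 CPM in the clones (median 175) and at 561 to 759 CPM in the 10 unedited libraries (mean of the 2 untreated libraries 752 ± 9.84 CPM, SD), so that the lowest unedited library was 2.64 times the highest clone. The lowest clone, T41I clone B9, had 138 *Ifi30* counts (Wilson 95% interval 80.5 to 112 CPM), and the highest, S37Y clone A5, had 431 (194 to 234 CPM). *Ifi30* lies at chr8:70762774-70766663 on the minus strand of GRCm38 and is annotated there as a processed transcript.

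Among the 7091 genes that averaged 20 CPM or more, 5 (0.0705%) had every clone over 2-fold below every unedited library. These were *Ifi30*, *Ddit4*, *Espn*, *Bnip3* and *Ndufa4l2*, with ratios of the lowest unedited library to the highest clone of 2.64, 2.46, 2.46, 2.10 and 2.01. Just outside this limit were *Bhlhe40* (1.95), *Ero1l* (1.92) and *Msi1* (1.69). *Ifi30* is the lone member of the lysosomal list among these genes. In the other direction, 4 genes (0.0564%) had every clone over 2-fold above every unedited library, none of them a member.

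**Figure D4:**
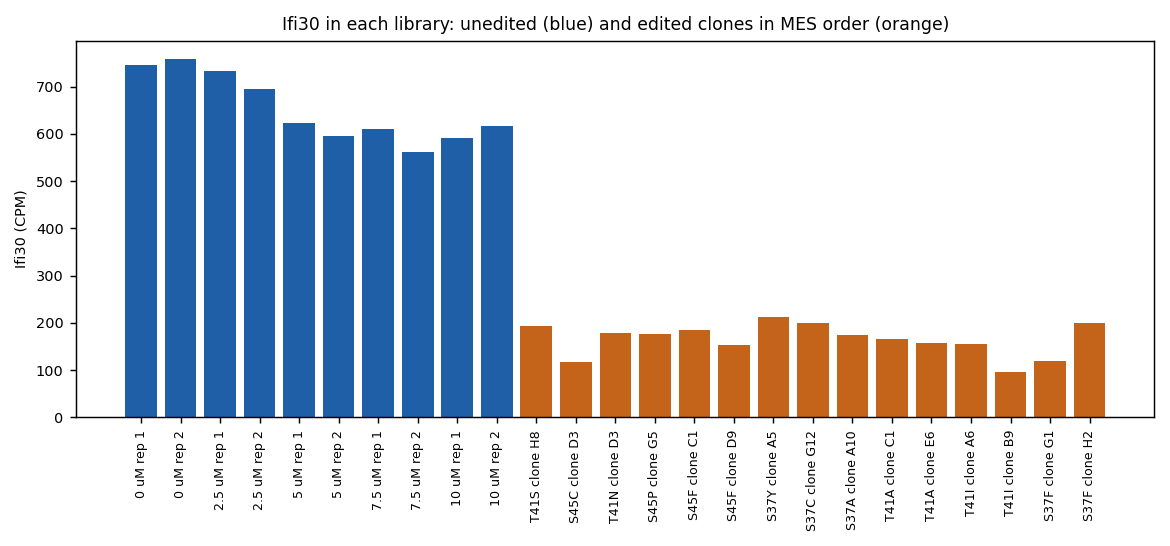
*Ifi30* in CPM (bars from 0) in each library, with the 10 unedited libraries by dose in blue and the 15 clones in order of mutation effect score in orange. The blue bars stand between 561 and 759 CPM and the orange bars between 95.1 and 213 CPM.

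Most genes around *Ifi30* differed less than it did. Of 21 genes within 500 kb with a mean of at least 20 CPM, 2 were over 2-fold lower in the mean of the clones, *Klhl26* (50.2 ± 11.1 against 19.5 ± 8.83 CPM, SD, n = 10 and 15) and *Arrdc2* (41.1 ± 7.80 against 10.1 ± 6.34 CPM). The median log2 ratio of clone mean to unedited mean was −0.079 over the 21 genes, with a range of −2.02 to 0.68, beside −1.98 for *Ifi30*. The neighbours on either side, *Mpv17l2* and *Pik3r2*, were at −0.14 and 0.34.

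The 5 genes whose log2(CPM + 1) followed *Ifi30* most closely over the 25 libraries, among 7090 compared, were *Ero1l* (Pearson's r = 0.953), *Tpi1* (0.950), *Efhd2* (0.949), *Aldoa* (0.948) and *Pafah1b3* (0.948). The libraries fall into clones and unedited cells, which share this step and the mitochondrial share, and within the 10 unedited libraries alone the same coefficients were −0.228 for *Ero1l*, 0.794 for *Tpi1*, −0.188 for *Efhd2*, 0.868 for *Aldoa* and 0.069 for *Pafah1b3*. Within the clones alone these coefficients were positive, at 0.437 for *Ero1l*, 0.56 for *Tpi1*, 0.574 for *Efhd2*, 0.517 for *Aldoa* and 0.73 for *Pafah1b3*. *Tpi1* and *Aldoa* encode glycolytic enzymes and *Ero1l* an oxidase of the endoplasmic reticulum.

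Of the 34 members in the fit, 9 were called lower in the clones against the 2 untreated libraries in the edgeR fit, where 9.74% of 11018 genes were lower, 9.94% higher and 19.7% called either way. As the members were chosen knowing this contrast, with the outcome for *Ifi30* fixed beforehand, that count is no test and nothing is read from it. The 9 were *Ifi30*, the sialidase *Neu1*, the glucosidase *Gaa*, *Hexa*, *Lamp2*, *Npc2*, *Mcoln1*, the autophagy gene *Gabarapl1* and the pump subunit *Atp6v0d1*. *Neu1* was at 70.7 and 74.4 CPM untreated and at 10.6 to 32.0 CPM in the clones (median 14.1), with every clone below every unedited library. *Hexa* was at 22.2 to 114 CPM in the clones against 171 to 257 CPM in unedited libraries, and *Gaa* at 48.6 to 92.3 CPM (median 63.2) against 122 and 138 CPM untreated. *Gabarapl1* was at 21.1 to 52.0 CPM against 71.2 and 69.1 CPM, and *Mcoln1* at 8.07 to 27.6 CPM against 34.8 and 33.0 CPM. Leaving out either untreated library left 3 of the 9 called, *Ifi30*, *Neu1* and *Gaa*.

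Of the 31 members with a mean of at least 20 CPM, 10 had every clone below both untreated libraries and none had every clone above them, where 10.0% and 14.6% of 7091 genes did so. These counts come from the same contrast and are a description too. Against all 10 unedited libraries 7 lay below in every clone (3.61% of all genes): *Fnip1*, *Ifi30*, *Lamp2*, *Gaa*, *Hexa*, *Neu1* and *Gabarapl1*. No member lay above them in every clone (6.23% of all genes). The members that stood level included *Tpp1* (67.9 to 110 CPM in the clones, 89.1 and 97.8 CPM untreated), *Atp6v1h* and *Grn*, whose clones lay on both sides of the untreated libraries.

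Levels of genes that rose with CHIR99021 are set beside the clones as a description, since the libraries at 7.5 and 10 µM also served to call these genes. *Npc2* was at 131 to 312 CPM in the clones (median 191) beside 546 to 637 CPM in the 4 libraries at those doses, and *Ctsb* at 82.5 to 178 CPM (median 140) beside 272 to 359 CPM. *Rragd* reached the range of those libraries in 1 of 15 clones, S45C clone D3.

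E-boxes were then counted by outcome. Of the 10 members that rose with dose and had a promoter entry, TCACGTG was present in 2 (*Lamp1* and *Ctsd*), and of the other 24 members it was present in 13. Of the 9 members lower in clones, it was present in *Ifi30*, *Gaa*, *Mcoln1* and *Atp6v0d1*. These counts are a description of the letters in this window and were not tested.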

How the data were processed

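Transcript 3′ ends were sequenced by mcSCRB-seq, which tags each molecule with an identifier, in 10 unedited and 15 edited libraries. The deposited values are counts per gene, not normalized, which the authors made in several steps. They trimmed adapters, extracted identifiers with UMI-tools, removed ribosomal reads and aligned the rest to mm10. Deduplication of identifiers with UMI-tools, removal of further duplicates with Picard and counting with featureCounts 2.0.1 followed. Annotation release and strand setting are not given in the sources used here, so reads of overlapping genes on opposite strands may not be separated. Levels were not compared between genes. Symbols and coordinates came from GENCODE M21, which held 48058 of 48440 gene IDs.

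CPM were computed from total counts. Fits used edgeR 4.0.16 (R 4.3.3) with its quasi-likelihood test, TMM scaling and a filterByExpr minimum of 10 counts (Benjamini-Hochberg adjustment over all genes tested, threshold 0.05), with dose in µM over 10 unedited libraries, MES per 10000 units over 15 clones (score per mutation from the study's source data, used only as predictor), or clones against the 2 untreated libraries. The SE is the log2 change divided by the square root of F. Fits were tested on simulated data with 200 planted changes. Same-numbered libraries of different doses did not deviate together (correlations −0.136 to 0.118 over 10 pairs, 2 above 0.1), so numbers were not taken as pairs.

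Members and lists were chosen with earlier results of these data known. Named with values were *Ifi30*, the 3 transcription factors, the folliculin and Rag genes, each member under the threshold in a trend fit, up to 3 genes of each further list with the smallest adjusted p under it, the 5 genes most correlated with *Ifi30*, and its neighbours within 500 kb; further members were named after their values were seen. Alternatives were RLE scaling, DESeq2 1.42.0, no filter, a replicate block, thinned counts, ranks, subsets or a block by mitochondrial share, sums per mutation, TMM-scaled CPM and leaving out each library. A block by mitochondrial share was not run on clones, which all lay over 0.8%. Some genes of the wider lists are not reported here.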

Additional observations from a re-analysis of the deposited data

How the results depend on the processing

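No slope of a member called in the dose or MES fit changed direction under these alternatives. Neither did the difference of *Ifi30* between clones and untreated libraries. The direction of the other members was not checked in this way. For the dose trend, 13 members were called; 7 were with counts thinned to the smallest library, 8 in libraries with a mitochondrial share over 0.8%, 1 without both libraries at 0 µM, and 6 to 13 leaving out each library, lowest without the first untreated one. Doses are evenly spaced, so ranks gave the same fit. For the MES trend, 7 were called, 0 without the clones of the 3 lowest scores, and 3 to 9 leaving out each clone, with 3 without S37F clone H2 and 4 without S45C clone D3 or T41N clone D3. For clones against untreated libraries, 9 were called, 18 with all 10 unedited libraries and dose as a covariate, and 3 to 11 leaving out each library, with 3 without either untreated library. With the replicate number as a block, 12, 5 and 9 members were called; the numbers do not pair the libraries. The causes were not tested, beyond the loss of counts or libraries. The count of genes over 2-fold below was also 5 with a minimum mean of 10 or 50 CPM and with TMM-scaled CPM. Counts were few for *Mitf*, *Psap*, *Naglu*, *Sgsh* and *Atp6v0c*, and the reason was not tested.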
